A study of Mus musculus with 7 samples.

Results

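Expression of 7 genes of the neurotrophin system was examined in the choroid plexus of mouse embryos that had received red blood cells or saline. The genes are the receptor genes Ntrk2, Ntrk3, Ngfr and Sort1 and the ligand genes Bdnf, Ntf3 and Ntf5, taken by symbol from the 40873 genes analysed. The family was selected on measured values of this comparison, because Ntrk2 was higher in every red blood cell library, so differences between the treatments are given for these genes as a description, without a test. The group treated with red blood cells comprised 3 libraries of pooled lateral ventricle choroid plexus from wild-type CD-1 embryos, an outbred stock, at E15.5 (embryonic day), 24 h after they were given washed cells from whole blood of an E14.5 donor litter. The saline group comprised 4 libraries of the same tissue, stock, genotype and age, 24 h after saline. Since the labels do not say how many embryos or litters each pool holds, the p-values below reflect library-to-library spread, which may be partly technical. The libraries held 4393860 to 8386928 counts.

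Neurotrophins are secreted growth factors that keep neurons alive and guide their growth and synapses. Brain-derived neurotrophic factor (Bdnf) and neurotrophin-4 (encoded in the mouse by Ntf5) bind the receptor tyrosine kinase TrkB (Ntrk2), and neurotrophin-3 (Ntf3) binds mainly TrkC (Ntrk3). The p75 receptor (Ngfr) binds all neurotrophins, and sortilin (Sort1) sorts neurotrophin precursors and joins p75 at the cell surface as their co-receptor. The choroid plexus, whose epithelium secretes cerebrospinal fluid, is known for a truncated TrkB that lacks the kinase domain.

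That second form bears on how the counts can be read, because the deposited table gives a single count per gene. In GENCODE M21 (GRCm38), Ntrk2 has 7 complete protein-coding transcripts, of which 2 encode the kinase receptor (2463 coding bases) and 5 are shorter (1398 to 1476 coding bases). The coding ends of a truncated transcript, Ntrk2-202, and a full-length transcript, Ntrk2-201, are shown to mark the point after which only reads over form-specific sequence would tell them apart. They share their first 1394 coding bases, and the last 30 shared bases are in lower case. Capitals mark what is particular to each form, which is all 34 remaining coding bases of the truncated transcript and the first 45 of 1069 in the full-length transcript.
Ntrk2-202: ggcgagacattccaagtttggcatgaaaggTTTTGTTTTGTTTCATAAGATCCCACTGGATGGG
Ntrk2-201: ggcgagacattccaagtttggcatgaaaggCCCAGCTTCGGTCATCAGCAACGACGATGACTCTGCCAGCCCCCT
Ntrk3 likewise has a truncated form (1836 coding bases) beside transcripts of up to 2592 coding bases. Every value of Ntrk2 and Ntrk3 below is therefore the sum of kinase-bearing and truncated transcripts.

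Ntrk2 drew the most reads of the 7 genes and alone was higher in all red blood cell libraries than in all saline libraries. It lies at chr13:58954286-59281784 (GRCm39, plus strand). It had 840.4, 878 and 743 CPM (counts scaled to library size) in red blood cells 1 to 3, against 584, 567, 597 and 592 CPM in saline 1 to 4. The lowest red blood cell library was 1.24 times the highest saline library. The means were 820.5 ± 69.8 CPM after red blood cells and 585 ± 13.2 CPM after saline (SD, n = 3 and n = 4), which is 1.40-fold higher after red blood cells, with an estimated log2 change of 0.49 ± 0.07 (SE). This estimate lay between 0.44 and 0.56 in the 18 alternative analyses, the lowest without red blood cells 2 and the highest without red blood cells 3. The saline libraries agreed closely, with a coefficient of variation of 2.26%, and 2.44% of the 11546 genes with a mean count of at least 50 varied less among saline libraries. In saline, among the 14869 genes that passed the count filter, Ntrk2 ranked 151 by CPM and 3388 by CPM per kilobase of the table's exon length.

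**Figure D1:**
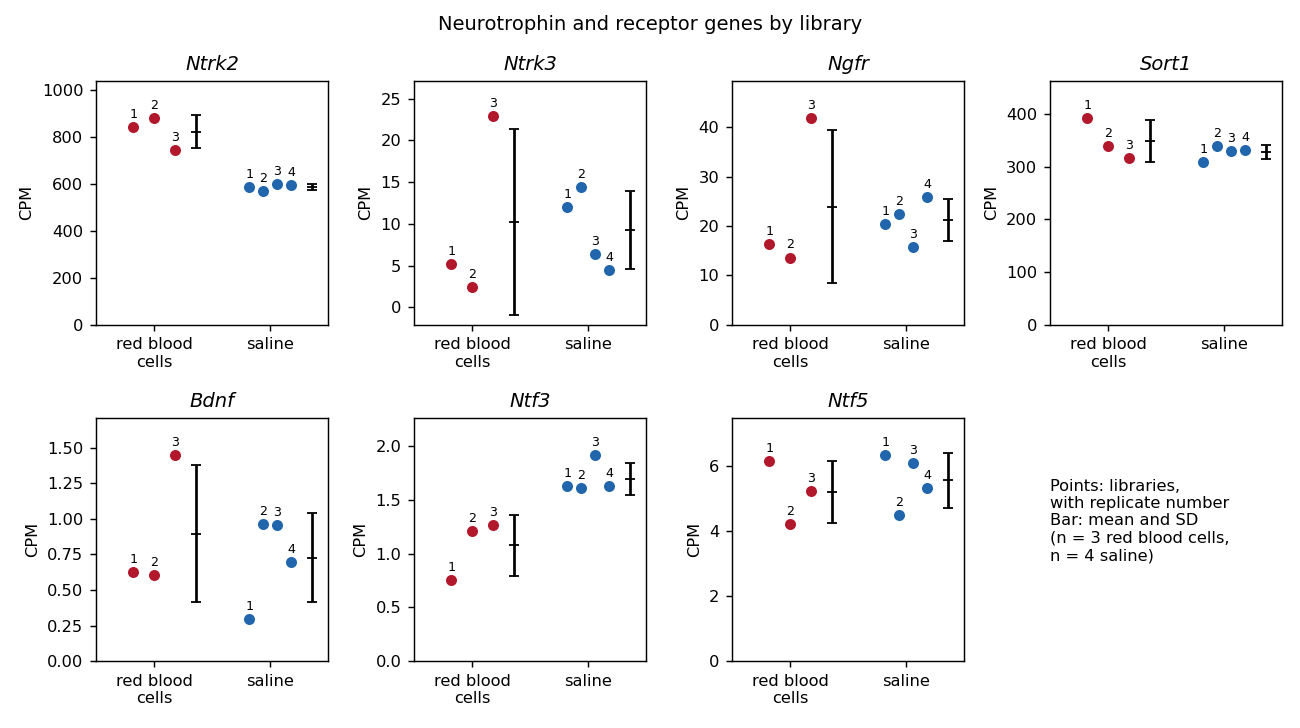
CPM (counts scaled to library size, linear axes) of the 7 genes in each library, red blood cells left (n = 3) and saline right (n = 4); points are libraries with their replicate numbers, and bars give mean and SD. Ntrk2 lay between 743 and 878 CPM after red blood cells, above all saline libraries, while Ntrk3 and Ngfr were highest in red blood cells 3.

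Sort1, the sorting receptor for neurotrophin precursors, lies at chr3:108191272-108268835 (plus strand) and was also abundant. It had 392, 339 and 316 CPM in red blood cells 1 to 3, against 309.9, 340.1, 329.5 and 332 CPM in saline 1 to 4. Only red blood cells 1 lay above the saline range. The log2 fold change was 0.09 ± 0.08 (SE, 95% interval -0.08 to 0.26).

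Ngfr, the p75 receptor gene (chr11:95459644-95478524, minus strand), and Ntrk3, the TrkC gene (chr7:77825711-78228865, minus strand), were set apart by a single library. Ngfr had 16.3, 13.6 and 41.8 CPM in red blood cells 1 to 3, against 20.4, 22.5, 15.8 and 25.9 CPM in saline 1 to 4. Ntrk3 had 5.15, 2.42 and 23.0 CPM in red blood cells 1 to 3, against 12.0, 14.4, 6.34 and 4.40 CPM in saline 1 to 4. Red blood cells 3 held the highest value of both genes (and of Bdnf, below) and red blood cells 2 the lowest, and the groups overlapped. The log2 fold change of Ngfr was 0.17 ± 0.42 (SE, 95% interval -0.84 to 1.19), and -0.48 ± 0.19 without red blood cells 3. The log2 fold change of Ntrk3 was 0.08 ± 0.84 (SE, 95% interval -1.99 to 2.15), and -1.28 ± 0.55 without red blood cells 3. The sign also depended on other choices. For Ngfr it was negative with limma-voom as well (-0.003, and -0.21 with sample weights). For Ntrk3 it was negative with limma-voom (-0.49, and -0.81 with sample weights) and without saline 3 (-0.07) or saline 4 (-0.12). Among saline libraries alone, the coefficient of variation was 20.1% for Ngfr and 50.6% for Ntrk3, and 92.4% and 99.4% of genes with a mean count of at least 50 varied less.

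Summed markers of several cell types were highest in red blood cells 3 as well, while those of neurons were not. The 8 fibroblast and mesenchyme markers summed to 2661 CPM there, to 1605 and 1390 CPM in red blood cells 1 and 2, and to between 1632 and 1780 CPM in the saline libraries. The 8 pericyte and smooth muscle markers summed to 739 CPM in red blood cells 3, against 458 to 583 CPM elsewhere. The 9 endothelium markers summed to 1386 CPM there, against 971 to 1185 CPM elsewhere, but they did not move together. Pecam1, Cdh5, Kdr, Tek, Tie1 and Cldn5 were each highest in red blood cells 3, and Eng was not. Emcn was lowest there (38.0 CPM), and Plvap (111.9 CPM) lay below all saline libraries (113.6 to 124.6 CPM). The 8 neural progenitor and astroglia markers summed to 295 CPM in red blood cells 3 and to 129.9 to 214 CPM elsewhere. The 6 markers of Schwann cells and neural crest glia, cells known for Ngfr, summed to 39.3 CPM in red blood cells 3 and to 23.0 to 35.7 CPM elsewhere, most of it Erbb3, while Sox10 had 2 counts after red blood cells and 4 after saline, and Foxd3 0 and 1. The 10 neuron markers summed to 88.2 CPM in red blood cells 3, against 112 to 139.8 CPM in saline 1 to 3. Their sum was lowest in red blood cells 2 (21.2 CPM) and saline 4 (58.4 CPM), the libraries in which Ntrk3 was lowest too. In bulk tissue, a change in the number of cells of a type and a change in RNA per cell cannot be told apart. The part of these cell types in the Ngfr and Ntrk3 values was not tested.

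**Figure D2:**
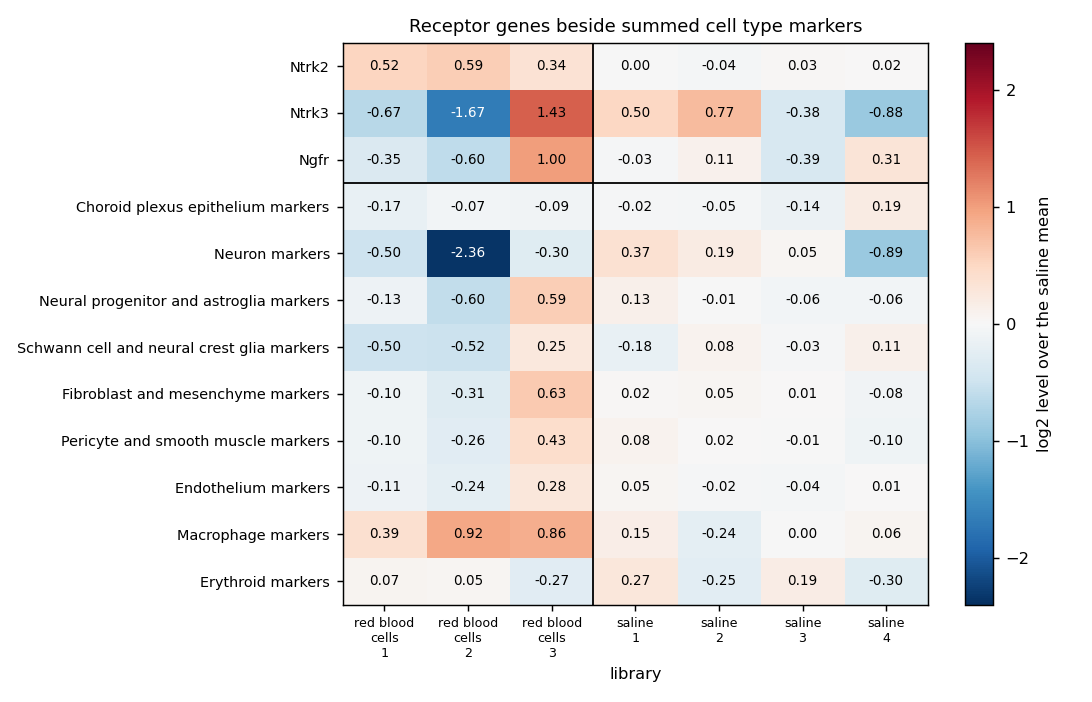
Log2 level of Ntrk2, Ntrk3 and Ngfr, and of the summed CPM of each marker list, relative to the mean of the saline libraries (colour and printed value), in each library from left to right. Ntrk3 and Ngfr stood at 1.43 and 1.00 in red blood cells 3, where fibroblast and mesenchyme markers stood at 0.63, whereas Ntrk2 was lower in that library (0.34) than in red blood cells 1 and 2.

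The marker lists also describe the tissue around the Ntrk2 difference. All 12 choroid plexus epithelium markers were detected, summing to 19749 to 21205 CPM after red blood cells and 20162 to 25392 CPM after saline. These sums largely follow Ttr, which alone held 10128 to 12013 CPM after red blood cells and 10050 to 14879 CPM after saline. Of the 12, 11 had a negative log2 fold change (median -0.08). The groups did not overlap for 3 of the 12, all lower after red blood cells, where 4.63% of all genes tested were. Of these 12, 0 passed in edgeR, 4 were lower at an unadjusted p under 0.05, where 4.32% of all genes tested were, and DESeq2 called 2 (Aqp1 and Slc4a5), where it called 1.41% of the genes to which it gave an adjusted p. The 10 macrophage markers summed to 364 to 525 CPM after red blood cells and to 235 to 308 CPM after saline, without overlap. Of these 10 markers, all had a positive log2 fold change, and 9 had an unadjusted p under 0.05, where 5.22% of all genes tested were higher at that level. Of the same 10, 1 (Adgre1) passed the threshold of 0.05 over all genes (edgeR adjusted p = 0.0280), where 0.0404% of all genes did so upward, and DESeq2 called 8, against the 1.41% above. Ntrk2 was highest in red blood cells 2, then 1, then 3, and the macrophage sum in red blood cells 2, then 3, then 1. Single macrophage markers differed in this order. Cx3cr1 (55.4, 81.7 and 49.2 CPM in red blood cells 1 to 3) and Cd68 (19.8, 20.7 and 15.0 CPM) had the order of Ntrk2. Adgre1, C1qa, C1qb, C1qc and Aif1 had the order of the sum, and Mrc1, Csf1r and Lyve1 were highest in red blood cells 3. The 10 neuron markers summed to 21.2 to 88.2 CPM after red blood cells and to 58.4 to 139.8 CPM after saline, and all 10 had a negative log2 fold change, 0 of them past the threshold in edgeR or DESeq2 and 1 at an unadjusted p under 0.05, where 9.54% of all genes tested were. The part of these cell types in the Ntrk2 difference was not tested.

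The ligand genes were scarce in the choroid plexus under both treatments. Bdnf, which encodes the main TrkB ligand of the brain (chr2:109505045-109557388, plus strand), had 5, 4 and 8 counts in red blood cells 1 to 3, against 2, 6, 8 and 3 counts in saline 1 to 4. It was the only one of the 7 genes below the count filter, and 3 counts represent 0.358 to 0.683 CPM in these libraries, so a small difference could not be seen at this depth. Ntf5, the gene of the other TrkB ligand (chr7:45063119-45066603, plus strand), had 49, 28 and 29 counts in red blood cells 1 to 3, against 43, 28, 51 and 23 counts in saline 1 to 4. These correspond to 5.21 ± 0.96 CPM after red blood cells and 5.57 ± 0.84 CPM after saline (SD, n = 3 and n = 4). The groups overlapped, with a log2 fold change of -0.10 ± 0.23 (SE, 95% interval -0.59 to 0.40), and 0.03 without red blood cells 2.

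Ntf3, the TrkC ligand gene (chr6:126078375-126143703, minus strand), was the second gene whose groups did not overlap once scaled, and it was lower with red blood cells. It had 6, 8 and 7 counts in red blood cells 1 to 3, against 11, 10, 16 and 7 counts in saline 1 to 4. Scaled to library size these were 0.753, 1.21 and 1.27 CPM after red blood cells and 1.63, 1.60, 1.91 and 1.62 CPM after saline. The log2 fold change was -0.68 ± 0.37 (SE, 95% interval -1.48 to 0.13), and -0.45 ± 0.42 without red blood cells 1. Ntf3 passed the count filter only through the saline group, since 4 saline libraries and 0 red blood cell libraries exceeded the filter's 1.49 CPM, so its place among the genes tested already depends on the saline libraries being higher.

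Of the family, 6 of the 7 genes passed the count filter, of which 4 had a positive and 2 a negative log2 fold change, while 49.9% of all genes tested were above 0. Of the 6, Ntrk2 passed the edgeR threshold over all genes, where 0.0605% of 14869 genes did and 0.0404% did so upward, and this count only restates why the family was chosen. The groups did not overlap for 2 of the 6 (Ntrk2 and Ntf3), where 9.59% of all genes tested had groups without overlap, 4.96% with red blood cells higher and 4.63% with red blood cells lower. This count informs nothing further, since Ntrk2 was chosen for being higher in every red blood cell library and Ntf3 passed the filter only through saline.

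**Figure D3:**
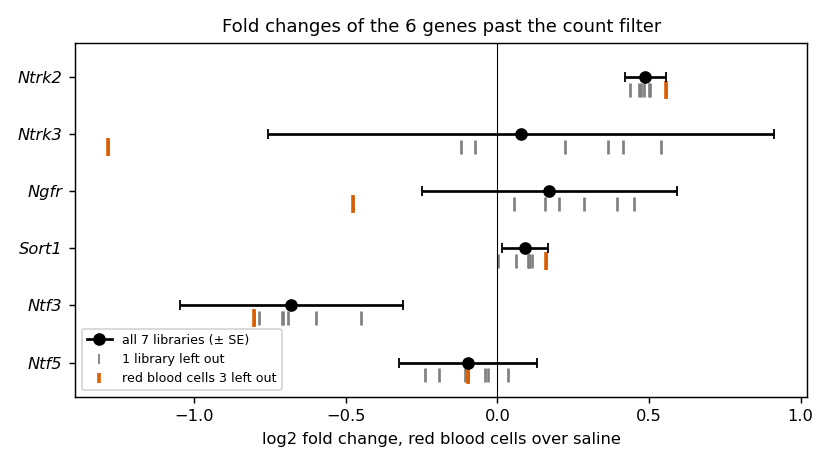
Log2 fold change (red blood cells over saline) of the 6 genes past the count filter, with SE (black), and the estimates with each library left out in turn (grey) or red blood cells 3 left out (orange). The estimates for Ntrk2 lay between 0.44 and 0.56, and their direction follows from how Ntrk2 was chosen. Those for Ntrk3 and Ngfr moved to -1.28 and -0.48 without red blood cells 3.

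Per kilobase of exon length, receptors exceeded ligands, apart from Ntrk3. With red blood cells, Sort1 had 48.6 ± 5.47 CPM per kilobase, Ntrk2 27.8 ± 2.36, Ngfr 7.02 ± 4.57, Ntf5 2.03 ± 0.37, Ntf3 0.53 ± 0.14, Ntrk3 0.42 ± 0.47 and Bdnf 0.13 ± 0.07 (SD, n = 3). With saline, the same order gave 45.7 ± 1.79, 19.8 ± 0.45, 6.20 ± 1.24, 2.16 ± 0.33, 0.83 ± 0.07, 0.39 ± 0.20 and 0.11 ± 0.05 CPM per kilobase (SD, n = 4). No neighbours in this order overlapped among the saline libraries. With red blood cells, Ntrk3 (0.10 to 0.96) overlapped both Ntf3 (0.37 to 0.62) and Bdnf (0.09 to 0.22). The place of Ntrk2 depends on the length used. The table's exons of Ntrk2 sum to 29517 bases, whereas the longest complete coding transcript in GENCODE M21 has 8744 bases, and with transcript lengths Ntrk2 came first, at 93.8 ± 7.98 CPM per kilobase after red blood cells and 66.9 ± 1.51 with saline, ahead of Sort1 at 51.1 ± 5.74 and 48.0 ± 1.88.

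The genes closest to Ntrk2 in their pattern over the 7 libraries were sought among 11545 genes with a mean count of at least 50, by the mean absolute difference in log2 CPM after subtracting the saline mean of each gene. The 6 closest were Fth1, which encodes the heavy chain of the iron store ferritin, Vcam1, a leukocyte adhesion molecule, Edem1, which acts in the disposal of misfolded glycoproteins, Ifngr2, a subunit of the interferon gamma receptor, Slc48a1, a heme transporter, and E2f6, a transcriptional repressor. Their mean absolute differences from Ntrk2 ran from 0.065 (Fth1) to 0.076 (E2f6) on the log2 scale. Fth1 had 889.5 ± 117 CPM after red blood cells and 626 ± 49.3 CPM after saline, and Vcam1 718 ± 121 and 507 ± 28.5 CPM (SD, n = 3 and n = 4). Relative to its saline mean, Ntrk2 stood at 0.52, 0.59 and 0.34 log2 units in red blood cells 1 to 3, and Fth1 at 0.54, 0.68 and 0.29. Of the 6, E2f6 was highest in red blood cells 1, and the other 5 in red blood cells 2, as Ntrk2 was. These genes were picked for their likeness to Ntrk2 and carry no test.

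The genes that act around the 7 were examined in 7 lists of 133 genes in all, of which 114 passed the count filter. Of these 114, 0 passed the edgeR threshold over all genes (lowest adjusted p = 0.170), 15 were at an unadjusted p under 0.05 (10 upward and 5 downward), DESeq2 called 1 (Mmp9) and limma-voom 0. The 15 are 13.2% of the 114, where 9.54% of all genes tested were at that level, 5.22% upward and 4.32% downward. DESeq2 called 1.41% of the 19922 genes to which it gave an adjusted p. The groups did not overlap for 9.65% of the 114, against 9.59% of all genes. Of the genes named below, these were Mmp9, Nradd, Ehd4, Fos and Il6st (higher after red blood cells) and Pcsk5, Shc4 and Nedd4 (lower), in CPM. The median log2 fold change was 0.02, against 0.00 for all genes tested.

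Of the relatives of sortilin, Sorl1, a sorting receptor of the endosome, had 34.9 ± 7.85 CPM after red blood cells and 26.6 ± 2.95 CPM after saline (mean ± SD of 3 and 4 libraries, as in all values below), with edgeR estimating a log2 change of 0.39 ± 0.15 (SE, adjusted p = 0.415). Sorcs1, another member of that receptor family, had 8.32 ± 3.96 CPM after red blood cells and 3.95 ± 1.41 CPM after saline (edgeR adjusted p = 0.332). Sorcs1 passed in 1 of 17 alternatives, without red blood cells 3 (adjusted p = 0.0289, with 0.0289 to 0.793 over the alternatives). All 3 genes tested in the list that holds them had positive log2 fold changes (median 0.39). Without red blood cells 3 the estimates were 0.35 for Sorl1 and 1.40 for Sorcs1, and without red blood cells 2 they were 0.24 and 0.94. The median of the list fell to 0.08 without red blood cells 3 and to 0.17 without red blood cells 2.

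Proteases that mature or degrade neurotrophins lay on both sides of 0. Mmp9, a matrix metalloproteinase that can cleave the Bdnf precursor, had 23, 82 and 53 counts in red blood cells 1 to 3, against 17, 14, 24 and 8 counts in saline 1 to 4. The log2 fold change was 1.76 ± 0.44 (SE, edgeR adjusted p = 0.170), and it passed with DESeq2 (adjusted p = 0.0244) and without red blood cells 1, with adjusted p of 0.0186 to 0.555 over its 17 alternatives. Mmp2, a related protease and the list's highest gene per kilobase, had 353 ± 20.97 CPM after red blood cells and 393 ± 21.4 CPM after saline (edgeR adjusted p = 0.471). Pcsk5, a proprotein convertase, had 38.0 ± 0.28 and 45.3 ± 6.41 CPM (edgeR adjusted p = 0.468). Of 10 genes tested in this list of 15, 6 had a positive and 4 a negative log2 fold change, with a median of 0.02. Plg, the plasminogen gene, was not tested, since all of its 228 counts fell in saline 4. All 18 counts of Mmp3 and both counts of Mmp7, which were not tested either, fell in saline 4 as well.

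Among partners and effectors of the p75 receptor, 8 of 14 genes had a positive log2 fold change (median 0.04). Nradd, which encodes a membrane protein related to p75, had 7.25 ± 0.79 CPM after red blood cells and 4.93 ± 0.37 CPM after saline, without overlap (edgeR adjusted p = 0.319). Maged1, an adaptor that binds p75 and the highest of the list per kilobase, had 793 ± 49.4 and 845 ± 44.2 CPM (edgeR adjusted p = 0.759).

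The adaptors and kinases that carry the Trk signal all passed the count filter, and 27 of 41 had a positive log2 fold change (median 0.02). Akt1, the list's highest gene per kilobase, had 256 ± 11.1 CPM after red blood cells and 252 ± 13.8 CPM after saline (edgeR adjusted p = 0.957). Braf, a kinase of the ERK cascade, had 243 ± 40.3 and 196 ± 19.9 CPM (edgeR adjusted p = 0.377) and passed without red blood cells 3 (adjusted p = 0.0294, with 0.0294 to 0.831 over the alternatives). Shc4, a Shc adaptor, had 1.64 ± 0.28 CPM after red blood cells and 2.82 ± 0.54 CPM after saline (edgeR adjusted p = 0.414).

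Genes of Trk trafficking and breakdown had 4 of 15 members at an unadjusted p under 0.05, where 9.54% of all genes were (Hap1, Sqstm1 and Ehd4 higher, Nedd4l lower after red blood cells), and a median of 0.06. Sqstm1, an autophagy receptor, had 276 ± 17.9 and 237 ± 17.8 CPM (edgeR adjusted p = 0.286), and Ehd4, an endocytic protein, 70.4 ± 12.9 and 56.7 ± 4.01 CPM (edgeR adjusted p = 0.332). Hap1, a trafficking protein that associates with huntingtin, had 120.6 ± 18.8 CPM after red blood cells and 97.6 ± 5.46 CPM after saline (edgeR adjusted p = 0.274). Hap1 also passed without red blood cells 3 (adjusted p = 0.0314, with 0.0314 to 0.816 over the alternatives). Nedd4, a ubiquitin ligase and the list's highest gene per kilobase, had 2258 ± 20.8 and 2403 ± 80.1 CPM (edgeR adjusted p = 0.718), with groups that did not overlap.

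Transcripts known to respond to Trk and ERK signalling lay on both sides of 0, with 10 of 21 tested genes above 0 and a median of 0.00. Fos, an immediate early gene, had 3.25 ± 0.47 CPM after red blood cells and 1.67 ± 0.53 CPM after saline, without overlap (edgeR log2 change 0.91 ± 0.32, SE, adjusted p = 0.319). Spry1, which encodes a feedback inhibitor of receptor tyrosine kinases, had 62.4 ± 15.4 and 63.8 ± 11.7 CPM (edgeR adjusted p = 0.983). Per1, a clock gene, had 72.2 ± 8.77 and 87.8 ± 10.7 CPM (edgeR adjusted p = 0.396). In the GDNF and CNTF family, 5 of 10 tested genes were above 0 (median -0.03). Il6st, the shared receptor subunit gp130, had 183 ± 19.9 CPM after red blood cells and 149 ± 9.35 CPM after saline (edgeR adjusted p = 0.196), and Manf, an endoplasmic reticulum protein with neurotrophic activity, 173 ± 19.9 and 157 ± 15.4 CPM (edgeR adjusted p = 0.706).

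**Figure D4:**
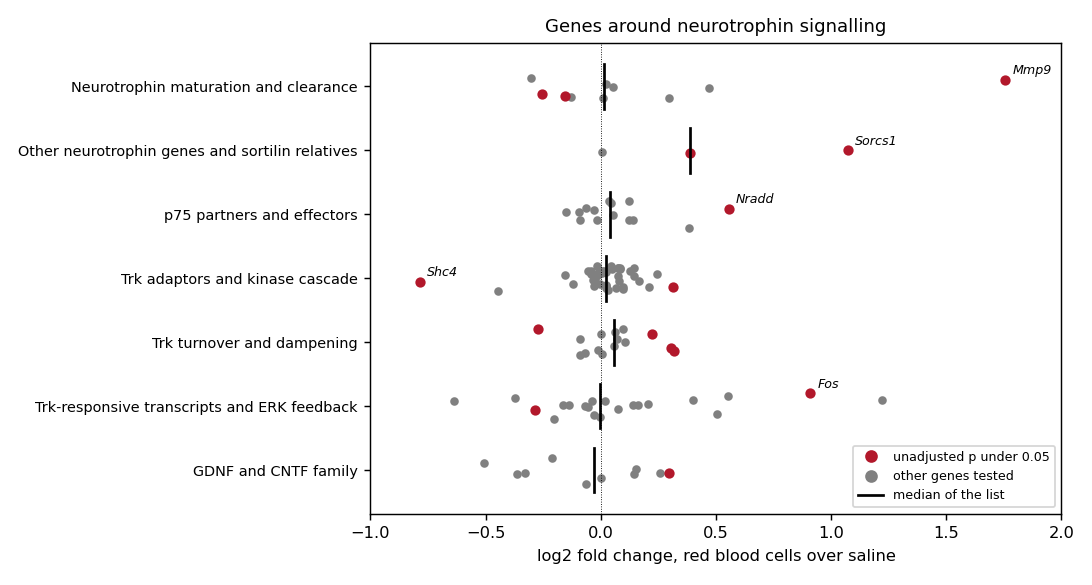
Log2 fold change (red blood cells over saline) of the 114 tested genes in 7 lists around neurotrophin signalling; each point is a gene, red where the unadjusted p is under 0.05, and the black line is the list's median. The medians lie between -0.03 and 0.39, and Mmp9 stands at 1.76.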

How the data were processed

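Gene expression was measured by directional poly(A) RNA sequencing of 7 libraries, per the labels. The authors deposited 1 table of raw counts per gene, laid out as featureCounts writes it. The tools STAR 2.6.1b, featureCounts 2.0.6 and cutadapt 2.5 and the build GRCm39 appear in the submitters' processing notes. Neither the annotation release nor the settings for strand and multi-mapped reads were found in the labels or headers. Ntrk3 shares 428 exon bases with Gm9885 on the opposite strand, which held 4 counts in all. Lines of 6 genes, broken in the table, were left out. The lines without a gene name hold 0.107% of counts. Total counts ran from 4393860 to 8386928 per library, and all libraries carry the batch label 1.

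Counts were tested with edgeR 4.0.16 (R 4.3.3; quasi-likelihood F test, robust, two-sided, TMM, filterByExpr, Benjamini-Hochberg over 14869 genes, threshold 0.05), without a replicate block. Standard errors derive from the F statistic, and 95% intervals from its degrees of freedom. CPM use TMM library sizes. Log2 CPM used a prior count of 2. Alternatives were DESeq2 1.42.0, limma-voom (limma 3.58.1), other normalizations and filters, a replicate block and each library left out. The analysis without red blood cells 2 and saline 4, and transcript lengths, were chosen after seeing the data. The code was tested on simulated data.

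The 7 genes, the lists and the rule for naming genes were chosen with earlier results of these data known. The rule names genes past the threshold in each pathway list, or else up to 3 with the lowest unadjusted p under 0.05, plus the highest gene per kilobase, and 6 genes most like Ntrk2. Nedd4l and single markers were named after their values were seen. Some genes of the lists are not reported here. Sequences come from GENCODE M21 transcripts. Figures were drawn with matplotlib 3.10.9.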

Additional observations from a re-analysis of the deposited data

Results flagged for a closer look

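Ntf3 in saline 3 stood apart from the other saline libraries, at 1.91 CPM against 1.60 to 1.63 CPM. The gap to the nearest library was 0.932 of the group's range, above Dixon's critical value for 4 libraries. It rests on 16 counts in saline 3 and 7 to 11 counts in the others. Of the 16 sets of saline values examined in this way, 7 genes and 9 marker lists, 1 exceeded it, and chance flags about 1 in 20.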

How the results depend on the processing

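The log2 fold change of Ntrk2 ran from 0.44 to 0.56 over the 18 alternatives. With a replicate block it was 0.49, and that of Ntrk3 was -0.51. The constant direction of Ntrk2 carries no further information, since Ntrk2 was chosen for being higher in every red blood cell library. The number of genes past the threshold, 9 in edgeR, was 280 with DESeq2, 48 with limma-voom and sample weights, 136 without a count filter, 16 without robust estimation, 2 with a replicate block, and 40 without red blood cells 2 and saline 4. With each library left out it ran from 1 (without saline 1, 2 or 3) to 283 (without red blood cells 3), with 17 and 34 without red blood cells 1 and 2 and 5 without saline 4. Pathway genes at an unadjusted p under 0.05, 15 in all, ran from 9 (without red blood cells 2) to 18 with each library left out. Same-numbered libraries of the 2 groups did not deviate together (correlations of -0.008, -0.173 and -0.173 over all genes tested), so the numbers were not taken as pairs. Depth limits Bdnf, with 17 counts after red blood cells and 19 after saline, and Ntf3, with 21 and 44.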
